A study of Mus musculus with 16 samples.

Results

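The 37 genes described here encode the machinery of glycolysis and a set of well-known hypoxia response genes: glucose transporters and hexokinases, the enzymes from phosphofructokinase to pyruvate kinase, the lactate dehydrogenases, the PFKFB and pyruvate dehydrogenase kinase regulators, the hypoxia-inducible factor subunit Hif1a with 2 of its hydroxylases, and classical targets of that factor. They were taken by gene symbol from a list drawn up with earlier results of these data known, and each was read from the brightest probe annotated to it. Of the 37 genes, 34 had a probe among the 24606 probes of the array, which together name 15967 genes. For Gpi1, Pgam1 and Eno1 no probe carried the symbol, so these genes are not analysed here, and Ero1l was found under its current symbol Ero1a.

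Glycolysis splits glucose into pyruvate in the cytosol, and lactate dehydrogenase turns pyruvate into lactate, which keeps the pathway running without oxygen. When oxygen is plentiful, the prolyl hydroxylases encoded by the Egln genes mark the HIF-1 alpha protein for destruction, and when oxygen is scarce the protein persists, pairs with Arnt and switches on glycolytic genes, Vegfa and further targets through short DNA elements with the core ACGTG or GCGTG. Because the alpha subunit is controlled mainly at the protein level, its mRNA is a poor readout of the pathway, while its target genes, which include Egln3 itself, are commonly used as one. Mouse embryonic stem (ES) cells are known for a high glycolytic rate in culture.

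RNA was measured in E14TG2a cells, an HPRT-negative mouse ES cell line, on Illumina MouseRef-8 v2.0 BeadChips, with 1 array per culture and 16 arrays in all. Every culture was moved from serum and LIF to knockout serum replacement (KSR) medium, for which the labels list no LIF, and held for 6 h with 10 µM SB-431542, a kinase inhibitor of the Nodal/Activin type I receptors. For the next 18 h the 4 groups received 25 ng/ml Activin, 10 µM SB-431542 (SB), the vehicle DMSO at a dilution of 1 in 5000, or KSR medium with no addition. Each group holds 4 cultures, 1 from each of passages 20, 21, 23 and 24 of this single line. A difference between passages therefore rests on 4 cultures of 1 passage that were treated differently, and its p-value measures the spread between such cultures and not between repeats of a passage.

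The arrays carried their labels as far as the known targets could show. Of 9 ES cell markers, 8 were measured and all 8 were above background, and Lefty1 and Lefty2, feedback inhibitors induced by Nodal/Activin signaling, were higher by 1.29 and 1.56 on the log2 scale in Activin than in DMSO and lower on every SB array than on every DMSO array. The inhibitor of differentiation gene Id1 was higher by 1.92 in SB than in DMSO. Mean intensity ran from 486 to 760 over the arrays and was 667 to 760 on the arrays of passages 23 and 24 against 486 to 669 on the earlier ones. Along the first principal component (15% of the variance) lay the arrays of passage 24 at 13.5 to 14.5, and all others at 2.5 or lower.

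Levels are given as log2 intensity after background correction and quantile normalisation. Background was set on each array from 1191 probes to chemosensory receptor genes (olfactory, vomeronasal and taste), and signals beyond their 95th percentile were taken as above it. On this rule 26 of the 34 genes passed on at least 4 arrays, among them 23 that passed on all 16. Pgk1, Hif1a, Bnip3, Adm, Ero1l and Higd1a were above background on no array, so their values are those of probes not well above background, and Hk1 and Eno2 were above background on 2 and 3 arrays. P4ha1, Ndrg1 and Car9 passed on 9, 13 and 4 arrays. In a bulk culture, a change in the number of cells that express a gene and a change in the RNA of each cell cannot be told apart.

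**Figure D1:**
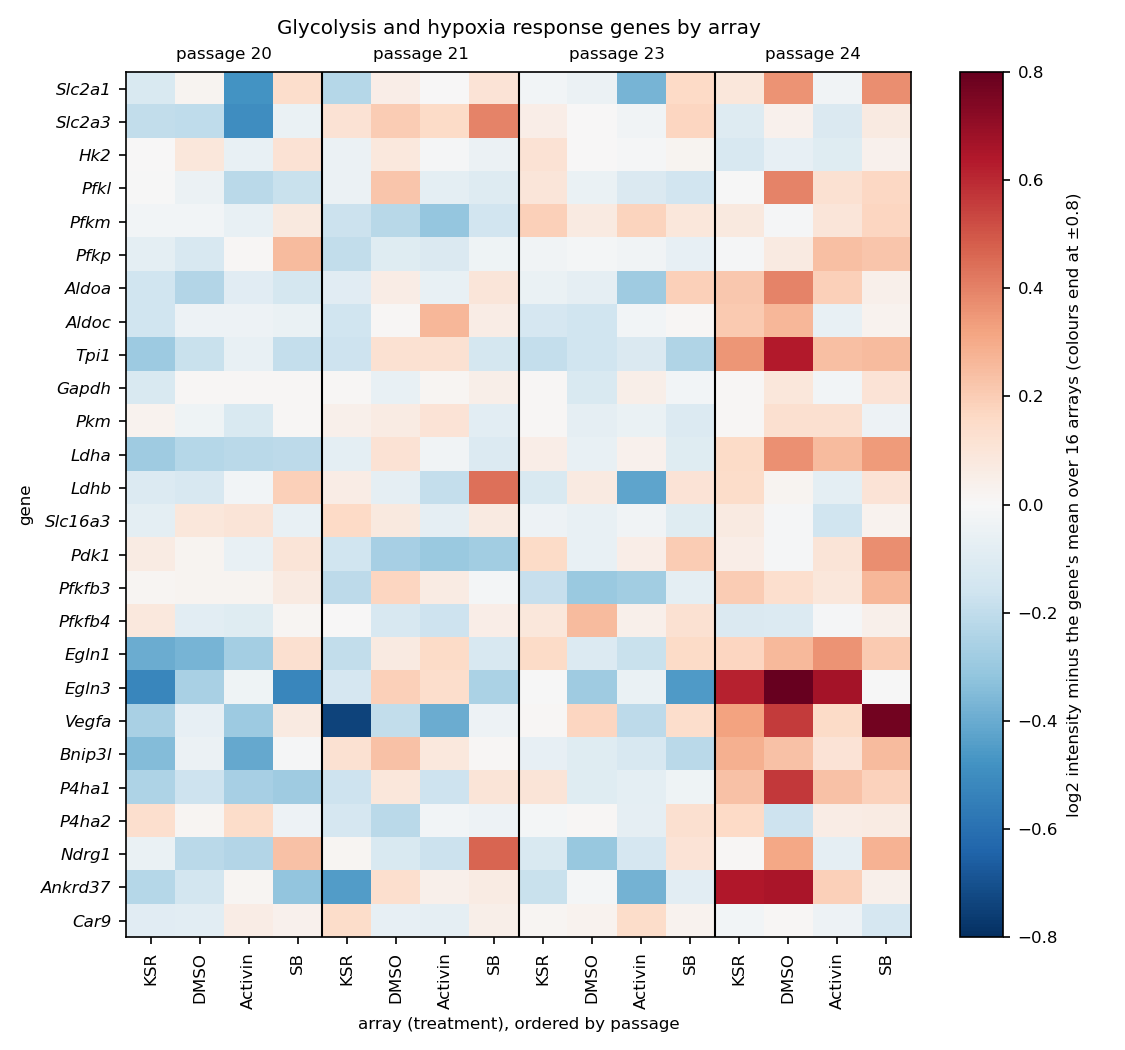
Heat map of the 26 genes that were above background on 4 or more arrays (rows, ordered by role) on the 16 arrays (columns, ordered by passage and, within a passage, as KSR, DMSO, Activin and SB). Colour gives log2 intensity minus the gene's mean over the 16 arrays, and the reds gather in the 4 columns of passage 24, among them Egln3, Vegfa, Ankrd37, Tpi1 and Ldha.

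The question put first was whether the 4 passages differed, with treatment kept as a term in the model. Many of the genes had their highest level at passage 24, with Egln3, Vegfa, Ankrd37, Tpi1, P4ha1 and Ldha in front. The F test over passages called 12 of the 34 genes at an adjusted p under 0.05, where it called 7.18% of all probes. Among probes above background on 4 or more arrays it called 14.7%, and 46.2% of the 26 genes so measured. By mean level, 18 of the 26 genes (69.2%) had their highest passage at passage 24 and 2 their lowest, and 28.7% of the probes above background were highest there. The count of 12 was 6 without the Activin arrays, 7 without the DMSO arrays and 3 without the arrays of passage 24.

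Passage 24 was then set against the mean of passages 20, 21 and 23. This contrast was chosen because the arrays of passage 24 stand apart on the first principal component of these same data. Its p-values take no account of that choice. All 11 genes called were higher at passage 24: Slc2a1, Aldoa, Tpi1, Ldha, Pfkfb3, Egln1, Egln3, Vegfa, Bnip3l, P4ha1 and Ankrd37. Over all probes 4.97% were called in either direction and 2.72% as higher. All 11 were among the 26 genes above background, where they made up 42.3%, and of all probes above background 10.2% were called and 5.38% as higher. The median difference over the 34 genes was 0.13 on the log2 scale against -0.003 over all probes, and over those above background it was 0.18 against -0.002. In 4 of the genes (Tpi1, Ldha, Egln1 and P4ha1) all 4 arrays of passage 24 lay above the other 12, as they did in 0.992% of all probes. The count was 6 without the Activin array of passage 24, 6 without the KSR array of passage 24, 7 without the DMSO array of passage 24 and 7 without the DMSO array of passage 23. It was 6 with all Activin or all KSR arrays left out and 5 without the DMSO arrays.

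Markers of other cell types and the array intensity also differed between passages, in part already at passage 23, and their part in the result was not tested. Of 8 primitive endoderm markers, 6 were called higher at passage 24, with Dab2 up by 1.71, Amn by 0.99 and Gata6 by 0.82 on the log2 scale, while Sox17, Sox7 and 1 other marker were above background on no array. The mean log2 level of the 8 markers ran from 7.08 to 7.27 at passage 20, 7.07 to 7.21 at passage 21, 7.78 to 7.93 at passage 23 and 7.83 to 8.02 at passage 24. For passages 23 and 24 against 20 and 21, 6 of the 8 were called higher and 1 lower. Their median change was 0.53, against 0.047 over the 34 genes. For passage 24 against 23 only Dab2 was called, and the median was 0.02 against 0.155 over the 34 genes. Dab2 was thus the 1 marker called higher in both contrasts (2.27 and 0.29), as were Egln3, Vegfa, P4ha1 and Ldha of the 34 genes. At passage 24 against the mean of the rest, 2 of 8 fibroblast markers were called lower, Acta2 by -1.04 and Col1a1 by -0.27. Of the 8, 6 were above background on no array. In the same contrast limma called 0 of the 8 ES cell markers (3 at an unadjusted p under 0.05). Of 5 neuroectoderm markers Otx2 (0.39) and the dim Zic1 (0.37) were called higher in it. The F test over passages called 3 of the 8 ES cell markers (Nanog, Zfp42 and Tdgf1), where it called 7.18% of all probes. Passage 24 against 23 called Zfp42 and Tdgf1 higher, where 2.85% of all probes were called. Without scaling between arrays the median probe above background was itself 0.14 higher at passage 24, and with scaling by the median 0.12, and the calls over all probes then split into 2575 higher and 122 lower, or 2709 and 218, in place of 670 and 553. On those scales the median of the 26 genes was 0.35 and 0.33.

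**Figure D2:**
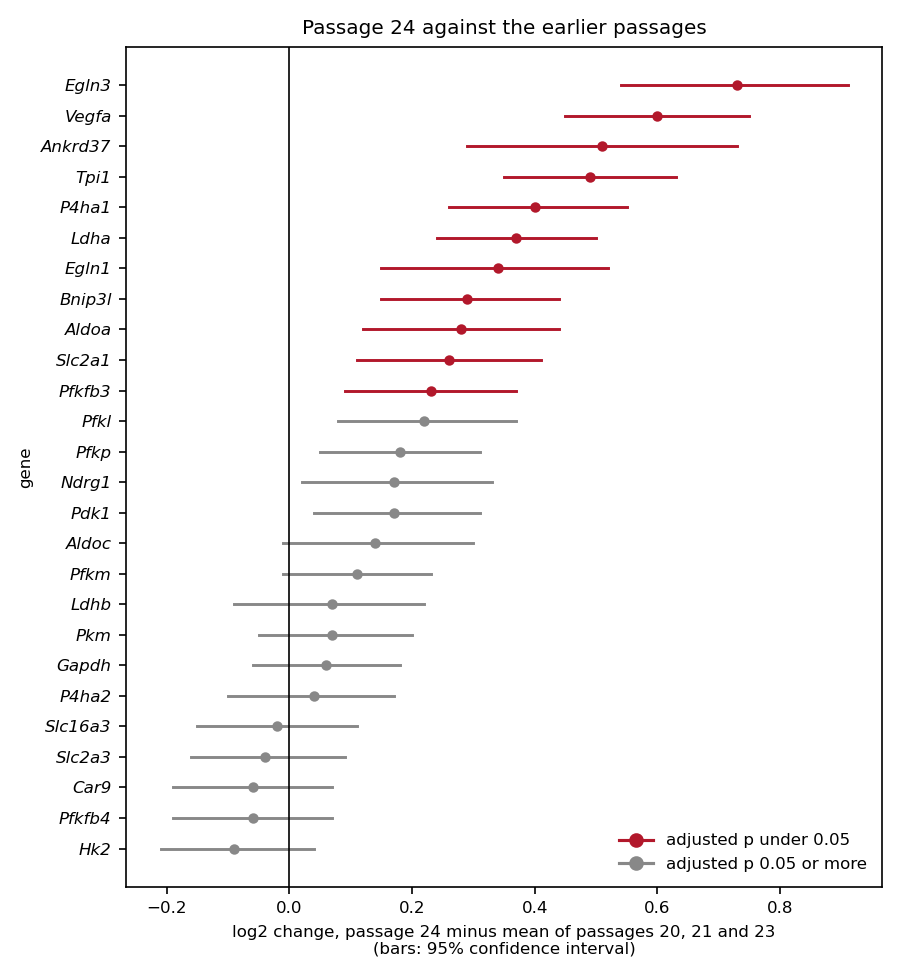
Log2 change at passage 24 against the mean of passages 20, 21 and 23 (x axis) for the 26 genes above background on 4 or more arrays (y axis), with dots for the estimate and bars for the 95% confidence interval. The 11 genes called, in red, run from 0.23 for Pfkfb3 to 0.73 for Egln3, and the other 15, in grey, from -0.09 for Hk2 to 0.22 for Pfkl.

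Egln3, one of the HIF hydroxylases, had the largest change of the 34 genes in the contrast of passage 24 with the other 3 passages. In the order KSR, DMSO, Activin and SB, which is kept in every such list below, its log2 levels were 7.64, 7.90, 8.13 and 7.64 at passage 20, 8.03, 8.35, 8.30 and 7.91 at passage 21, 8.16, 7.88, 8.11 and 7.71 at passage 23 and 8.78, 9.06, 8.83 and 8.16 at passage 24. The KSR, DMSO and Activin arrays of passage 24 lay above every earlier array, and the SB array of passage 24 lay among the earlier ones. The change at passage 24 was 0.73 ± 0.09 (SE, 1.65-fold, limma adjusted p = 3.21e-05), and it was 1.02 within DMSO, 0.84 within KSR, 0.65 within Activin and 0.40 within SB. Egln1, which encodes the main oxygen sensor among the hydroxylases, read 7.73, 7.76, 7.86 and 8.26 at passage 20, 7.93, 8.20, 8.28 and 8.0 at passage 21, 8.28, 8.02, 7.95 and 8.28 at passage 23 and 8.30, 8.39, 8.49 and 8.34 at passage 24. Its SB array of passage 20 stood above the other 3 of that passage, and passage 24 was higher than the rest by 0.34 ± 0.09 (adjusted p = 0.0314). Egln1 has 2 further probes, both above background on no array, whose changes of 0.13 and 0.15 were not called. The F test called the one with the change of 0.13 (adjusted p = 0.0401), as it did the brightest Egln1 probe (adjusted p = 0.0447). Hif1a itself, on a probe that was above background nowhere, read 6.45, 6.27, 6.25 and 6.09 at passage 20, 6.16, 6.27, 6.18 and 6.10 at passage 21, 5.95, 6.07, 6.45 and 5.94 at passage 23 and 6.18, 6.04, 6.13 and 6.10 at passage 24. No passage stood apart.

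Of the 11 HIF target genes, 4 were called higher at passage 24 and 9 had positive changes, with a median of 0.12. The share called higher over all probes was 2.72%, and their median was -0.003. Vegfa, the angiogenic growth factor, had log2 levels of 9.28, 9.47, 9.25 and 9.61 at passage 20, 8.80, 9.34, 9.14 and 9.50 at passage 21, 9.55, 9.71, 9.33 and 9.68 at passage 23 and 9.86, 10.10, 9.69 and 10.31 at passage 24. All 4 treatments read highest at passage 24, and only the Activin array of passage 24, at 9.69, overlapped the earlier arrays, which reached 9.71. The difference was 0.60 ± 0.07 (1.52-fold, adjusted p = 3.16e-05). Ankrd37, a HIF-1 target that encodes an ankyrin repeat protein, read 7.99, 8.07, 8.23 and 7.90 at passage 20, 7.77, 8.35, 8.26 and 8.28 at passage 21, 8.04, 8.20, 7.84 and 8.13 at passage 23 and 8.86, 8.87, 8.41 and 8.26 at passage 24. Here the KSR and DMSO arrays of passage 24 stood apart at 8.86 and 8.87, while the Activin and SB arrays read 8.41 and 8.26, and the change was 0.51 ± 0.10 (adjusted p = 0.00622).

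P4ha1 encodes a catalytic subunit of the collagen prolyl hydroxylase. It read 6.97, 7.05, 6.95 and 6.93 at passage 20, 7.05, 7.31, 7.05 and 7.32 at passage 21, 7.32, 7.12, 7.14 and 7.18 at passage 23 and 7.45, 7.78, 7.45 and 7.40 at passage 24. It was above background on none of the arrays of passage 20, on 2 of passage 21, 3 of passage 23 and 4 of passage 24, so its probe gives no more than an upper bound at passage 20. The fitted change was 0.40 ± 0.07 (adjusted p = 0.00208). Bnip3l, a mitophagy receptor, read 9.68, 9.98, 9.62 and 10.02 at passage 20, 10.15, 10.26, 10.11 and 10.04 at passage 21, 9.96, 9.93, 9.90 and 9.81 at passage 23 and 10.31, 10.26, 10.14 and 10.28 at passage 24. Passages 21 and 24 were the high ones for this gene and overlapped, with a change of 0.29 ± 0.07 at passage 24 (adjusted p = 0.0173). The other HIF targets were not called: P4ha2 changed by 0.04, Ndrg1 by 0.17 and Car9 by -0.06. The dimmer probe of Ndrg1, above background on 1 array, was called at 0.28 (adjusted p = 0.0488). The F test called this dimmer probe (adjusted p = 0.0218) and not the brighter one (adjusted p = 0.243). A dimmer Car9 probe, above background on no array, changed by 0.09 and was called by the F test (adjusted p = 0.0428). The brighter Car9 probe was not called by it (adjusted p = 0.768). Bnip3, the partner receptor of Bnip3l in mitophagy, read 5.92, 6.22, 6.31 and 6.02 at passage 20, 6.13, 5.83, 6.20 and 6.19 at passage 21, 6.10, 6.08, 6.32 and 5.88 at passage 23 and 6.14, 6.19, 6.23 and 6.30 at passage 24. Adm, Ero1l and Higd1a ran from 6.00 to 7.15, and all 4 of these probes were above background on no array.

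**Figure D3:**
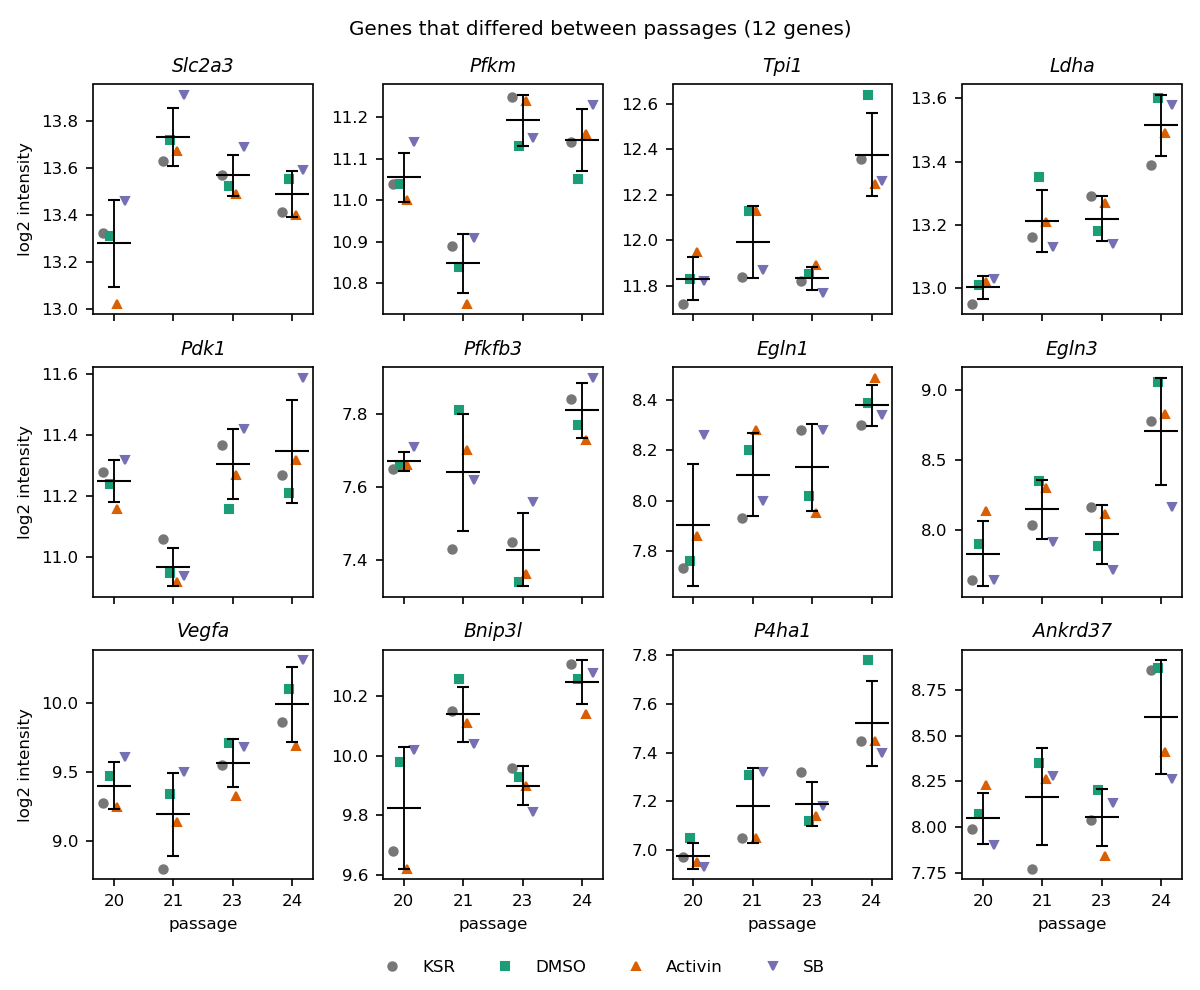
Log2 intensity (y axes, each with its own range) of the 12 genes called by the F test, by passage (x axes), with 1 symbol per array by treatment and black marks for the mean ± SD of the 4 arrays. Tpi1, Ldha, Egln1 and P4ha1 show 4 arrays of passage 24 above all others, whereas Slc2a3 is lowest at passage 20 and Pfkm and Pdk1 are lowest at passage 21.

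In the upper part of glycolysis 2 of 6 measured genes were called higher at passage 24 and all 6 had positive changes, with a median of 0.20. Over all probes 2.72% were called higher and the median was -0.003. Tpi1, triose phosphate isomerase, read 11.72, 11.83, 11.95 and 11.82 at passage 20, 11.84, 12.13, 12.13 and 11.87 at passage 21, 11.82, 11.85, 11.89 and 11.77 at passage 23 and 12.36, 12.64, 12.25 and 12.26 at passage 24. The DMSO array of passage 24, at 12.64, was the highest, and all 4 arrays of that passage exceeded the others, by 0.49 ± 0.07 (1.41-fold, adjusted p = 0.000172). The second probe of Tpi1 was called as well, at 0.41 (adjusted p = 0.00416). Aldoa, the fructose bisphosphate aldolase of most tissues, was higher by 0.28 ± 0.08 (adjusted p = 0.0367), with passage means of 12.15, 12.30, 12.25 and 12.51, and within SB alone its difference was -0.02.

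The 3 phosphofructokinase genes, whose product commits sugar to glycolysis, were not called at passage 24. Pfkp read 10.44, 10.39, 10.53 and 10.77 at passage 20, 10.32, 10.42, 10.40 and 10.48 at passage 21, 10.49, 10.50, 10.49 and 10.45 at passage 23 and 10.51, 10.59, 10.76 and 10.74 at passage 24. Its change was 0.18 ± 0.06 (adjusted p = 0.113), although its dimmer probe was called at 0.26 (adjusted p = 0.03). The F test likewise called the dimmer Pfkp probe (adjusted p = 0.00249) and not the brighter one (adjusted p = 0.172). Pfkl changed by 0.22 (adjusted p = 0.0624). Pfkm, the muscle form, read 11.04, 11.04, 11 and 11.14 at passage 20, 10.89, 10.84, 10.75 and 10.91 at passage 21, 11.25, 11.13, 11.24 and 11.15 at passage 23 and 11.14, 11.05, 11.16 and 11.23 at passage 24. The 4 arrays of passage 21 lay below the other 12 for Pfkm, and the F test called it (adjusted p = 0.0135). Its change at passage 24 against the mean of the rest was not called (0.11, 95% confidence interval -0.01 to 0.23). A dimmer Pfkm probe was also called by the F test (adjusted p = 0.0269) and changed by -0.09 at passage 24. Aldoc, the brain-type aldolase, changed by 0.14 (adjusted p = 0.307).

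At the entry of glucose the genes went separate ways. Slc2a1, the transporter GLUT1, read 12.35, 12.49, 11.99 and 12.61 at passage 20, 12.24, 12.52, 12.47 and 12.58 at passage 21, 12.45, 12.42, 12.10 and 12.63 at passage 23 and 12.56, 12.83, 12.44 and 12.84 at passage 24. It was higher at passage 24 by 0.26 ± 0.07 (adjusted p = 0.0377), with arrays that overlapped the earlier ones, and the F test did not call it (adjusted p = 0.0924). Slc2a3, the transporter GLUT3, read 13.32, 13.31, 13.02 and 13.46 at passage 20, 13.63, 13.72, 13.67 and 13.91 at passage 21, 13.57, 13.52, 13.49 and 13.69 at passage 23 and 13.41, 13.55, 13.40 and 13.59 at passage 24. Its lowest passage was passage 20 and its highest passage 21, and the F test called it (adjusted p = 0.00406) while the change at passage 24 was -0.04. Hk2, the inducible hexokinase, read 12.66, 12.75, 12.60 and 12.77 at passage 20, 12.61, 12.74, 12.65 and 12.61 at passage 21, 12.77, 12.66, 12.65 and 12.68 at passage 23 and 12.53, 12.59, 12.56 and 12.69 at passage 24. All 16 values lay between 12.53 and 12.77, and the change at passage 24 was -0.09 (95% confidence interval -0.21 to 0.04). The signs of Slc2a3 and Hk2 at passage 24 turned to 0.15 and 0.12 with median scaling and to 0.17 and 0.14 with no scaling, without a call.

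In the lower part of glycolysis limma called 0 of 4 measured genes (1 at an unadjusted p under 0.05), and Gapdh and Pkm alone were above background on 4 or more arrays. The median change was 0.08. Gapdh, which is widely used as a reference gene, read 15.69, 15.82, 15.82 and 15.82 at passage 20, 15.82, 15.75, 15.83 and 15.86 at passage 21, 15.82, 15.69, 15.86 and 15.79 at passage 23 and 15.82, 15.90, 15.79 and 15.92 at passage 24. Its probe was among the 7th to 18th brightest of every array, where quantile normalisation leaves few distinct values and several arrays share 15.82. The change at passage 24 was 0.06 (95% confidence interval -0.06 to 0.18), and the second Gapdh probe gave 0.06 as well. Pkm, pyruvate kinase, changed by 0.07 (95% confidence interval -0.05 to 0.20).

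Around pyruvate, Ldha, the lactate dehydrogenase subunit that favours lactate, read 12.95, 13.01, 13.02 and 13.03 at passage 20, 13.16, 13.35, 13.21 and 13.13 at passage 21, 13.29, 13.18, 13.27 and 13.14 at passage 23 and 13.39, 13.60, 13.49 and 13.58 at passage 24. All 4 arrays of passage 24 exceeded the others and all 4 of passage 20 lay below the others, and the change at passage 24 was 0.37 ± 0.06 (1.29-fold, adjusted p = 0.00126). Its partner subunit Ldhb changed by 0.07 (95% confidence interval -0.09 to 0.22), and Slc16a3, the lactate exporter MCT4, by -0.02 (-0.15 to 0.11). Pdk1, the kinase that holds pyruvate back from the mitochondria, read 11.28, 11.24, 11.16 and 11.32 at passage 20, 11.06, 10.95, 10.92 and 10.94 at passage 21, 11.37, 11.16, 11.27 and 11.42 at passage 23 and 11.27, 11.21, 11.32 and 11.59 at passage 24. It was lowest on all 4 arrays of passage 21 and was called by the F test (adjusted p = 0.0117) but not at passage 24 (0.17, adjusted p = 0.123).

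The bifunctional enzymes of the PFKFB family set the level of the phosphofructokinase activator. Pfkfb3 read 7.65, 7.66, 7.66 and 7.71 at passage 20, 7.43, 7.81, 7.70 and 7.62 at passage 21, 7.45, 7.34, 7.36 and 7.56 at passage 23 and 7.84, 7.77, 7.73 and 7.90 at passage 24. Passage 23 was its lowest, passage 24 its highest, and the change at passage 24 was 0.23 ± 0.07 (adjusted p = 0.047). Pfkfb4 changed by -0.06 (95% confidence interval -0.19 to 0.07) and was highest at passage 23. Its dimmer probe, above background on no array, changed by 0.06 and was not called.

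Because HIF-1 binds ACGTG and GCGTG cores, promoter windows of Egln3, Ankrd37, Ldha, P4ha1 and Tpi1 are shown for reference. These were among the genes that led at passage 24. Each window runs from 250 bases before to 50 bases after the annotated start in RefSeq for GRCm38.p6. Capitals mark every ACGTG or GCGTG on either strand (CACGT and CACGC on the strand shown), which overlap where a palindromic CACGTG occurs. Of the 37 genes, 34 had such a window, and Slc2a3, Bnip3l and Ndrg1 did not. A match was found in a window of 31 of the 34 genes (91.2%), against 46.7% of the 27025 genes in the table, and in 81.2% of their 48 windows against 43.8% of all 32851. A match is a run of letters and not a bound site. The genes were listed in part as known HIF targets, and the windows were not matched to others for base composition. The difference from all genes is therefore not a test of HIF binding. The windows of Egln3, Ankrd37 and P4ha1 below hold 1, 4 and 3 matches. Ldha has 2 windows, with 7 and 2 matches, of which the first is shown. The window of Tpi1 holds 0 matches. Vegfa, which also led at passage 24, has 2 windows, with 0 and 2 matches, which are not shown.
Egln3, chr12:54203825-54204124 (minus strand): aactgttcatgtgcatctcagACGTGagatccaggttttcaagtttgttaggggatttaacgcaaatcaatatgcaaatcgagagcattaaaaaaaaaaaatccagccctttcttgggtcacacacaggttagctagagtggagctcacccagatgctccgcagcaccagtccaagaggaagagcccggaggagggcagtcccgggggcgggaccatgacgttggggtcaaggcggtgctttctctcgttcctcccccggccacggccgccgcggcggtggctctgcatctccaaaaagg
Ankrd37, chr8:45999801-46000100 (minus strand): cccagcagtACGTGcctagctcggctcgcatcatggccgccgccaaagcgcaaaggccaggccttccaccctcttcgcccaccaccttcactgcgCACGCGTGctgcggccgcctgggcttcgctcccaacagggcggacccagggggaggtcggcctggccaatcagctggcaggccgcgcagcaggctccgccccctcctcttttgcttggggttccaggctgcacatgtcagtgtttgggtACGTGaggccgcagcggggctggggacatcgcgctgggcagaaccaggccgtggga
Ldha, chr7:46845554-46845853 (plus strand): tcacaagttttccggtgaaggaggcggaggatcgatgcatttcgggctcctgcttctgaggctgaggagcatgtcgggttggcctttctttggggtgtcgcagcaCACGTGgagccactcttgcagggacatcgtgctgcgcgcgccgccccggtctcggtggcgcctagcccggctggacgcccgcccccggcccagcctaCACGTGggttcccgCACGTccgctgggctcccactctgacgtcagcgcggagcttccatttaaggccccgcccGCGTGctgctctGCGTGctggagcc
P4ha1, chr10:59323046-59323345 (plus strand): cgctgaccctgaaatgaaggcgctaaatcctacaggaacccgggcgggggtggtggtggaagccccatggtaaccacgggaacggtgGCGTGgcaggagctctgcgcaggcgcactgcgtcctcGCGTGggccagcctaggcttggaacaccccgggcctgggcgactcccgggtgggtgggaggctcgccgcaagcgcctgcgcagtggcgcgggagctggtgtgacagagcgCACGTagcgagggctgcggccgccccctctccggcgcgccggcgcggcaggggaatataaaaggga
Tpi1, chr6:124814109-124814408 (minus strand): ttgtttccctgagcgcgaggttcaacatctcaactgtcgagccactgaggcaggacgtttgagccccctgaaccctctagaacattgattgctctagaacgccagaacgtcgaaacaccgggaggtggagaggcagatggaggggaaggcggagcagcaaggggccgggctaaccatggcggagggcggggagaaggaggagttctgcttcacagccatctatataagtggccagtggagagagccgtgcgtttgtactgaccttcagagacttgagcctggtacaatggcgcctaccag

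The other passage contrasts placed these changes in the series. Passages 23 and 24 together against 20 and 21 called 6 of the 34 genes, all higher, where 3.79% of all probes and 6.95% of those above background were called: Vegfa (0.48), Egln3 (0.35), P4ha1 (0.28), Ldha (0.26), Pfkm (0.22) and Pdk1 (0.22). Passage 24 against passage 23 called 8, all higher, against 2.85% of all probes and 6.19% of those above background: Egln3 (0.74), Ankrd37 (0.55), Tpi1 (0.54), Vegfa (0.42), Pfkfb3 (0.38), Bnip3l (0.35), P4ha1 (0.33) and Ldha (0.29). Passage 21 against passage 20 called 1, Slc2a3 at 0.45 ± 0.07 (adjusted p = 0.00476), against 0.882% of all probes and 1.88% of those above background. These contrasts share arrays with each other and with the comparison above. The count of 8 fell to between 2 and 5 when 1 of 7 arrays was left out: 2 without the Activin array of passage 23 or the KSR array of passage 24, 3 without the SB array of passage 24 or the DMSO array of passage 23, 4 without the SB array of passage 23 or the DMSO array of passage 24, and 5 without the Activin array of passage 24. Leaving out all 4 Activin or all 4 KSR arrays brought the count of 6 down to 2, and leaving out the SB arrays to 3. Without all arrays of 1 treatment the count of 8 was 2 (DMSO) or 3 (Activin, SB or KSR), and Slc2a3 lost its call without the Activin or the SB arrays.

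Neighbouring genes of the pathway were read beside these, in lists drawn up with earlier results of these data known. Their counts stand against 4.97% of all probes and 10.2% of probes above background called in the same contrast. Of 39 measured among 43 other HIF target genes, 6 were called higher at passage 24 and 0 lower, with a median change of 0.12. The leading ones were Stc2 (0.91 ± 0.06, adjusted p = 5.36e-09), a secreted glycoprotein, Ddit4 (0.85 ± 0.09, adjusted p = 6.71e-06), the mTOR inhibitor also called REDD1, Gys1 (0.51 ± 0.07), glycogen synthase, and the dim Stc1 (0.39 ± 0.09). Among 26 other glycolysis and pyruvate genes only Pgm1, phosphoglucomutase, was called higher (0.46 ± 0.07, adjusted p = 0.000397). Among 13 other HIF regulators Crebbp, a coactivator, was called lower (-0.26), and among 24 pyruvate dehydrogenase and TCA cycle genes Ogdh was called lower (-0.26), with medians of -0.01 and 0.02. Limma called 0 of 9 pentose phosphate genes, with 4 at an unadjusted p under 0.05. Of 8 serine and one-carbon genes 4 were called higher, Psat1 by 0.71, Shmt2 by 0.50, Mthfd2 by 0.37 and Mthfd1l by 0.32, and of 12 Myc and stress regulators Trib3 (0.67) and Atf4 (0.34), which belong to the integrated stress response.

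The treatment comparisons asked whether raising or blocking Nodal/Activin signaling for 18 h moved these genes. In the 4-group limma model none of the 34 genes was called in DMSO against KSR (0% of all probes), Activin against DMSO (0.0203%), SB against DMSO (0.309%) or Activin against SB (0.898%). The smallest adjusted p was 1, 1, 0.307 and 0.057. At an unadjusted p under 0.05 the genes numbered 1, 1, 5 and 8 of 34, against 3.27%, 3.58%, 5.74% and 7.7% of all probes. The median difference over the 34 genes was 0.04 in DMSO against KSR, -0.05 in Activin against DMSO, 0.04 in SB against DMSO and -0.07 in Activin against SB, and no gene of the 34 differed by as much as 1.5-fold in any of them. All 4 comparisons draw on shared arrays.

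Passage pairs the cultures across the groups, and with passage as a block the first 3 comparisons again called 0 of the 34 genes, where 0%, 0.0366% and 0.61% of all probes were called and 2, 3 and 9 of the genes had an unadjusted p under 0.05. Activin against SB then called 6 genes, where 1.78% of all probes were called: Slc2a1, Ldhb, Vegfa, Ndrg1 and Eno2 lower and Egln3 higher in Activin. Without the block the adjusted p of these genes ran from 0.057 to 0.608. In 6 of the 34 genes all 4 Activin arrays lay below all 4 SB arrays, against 2.15% of all probes: Slc2a1, Ldhb and Ndrg1, and the dim Hk1, Eno2 and Higd1a. In 1 gene, Hif1a, whose probe was above background nowhere, they lay above, against 2.43% of all probes.

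**Figure D4:**
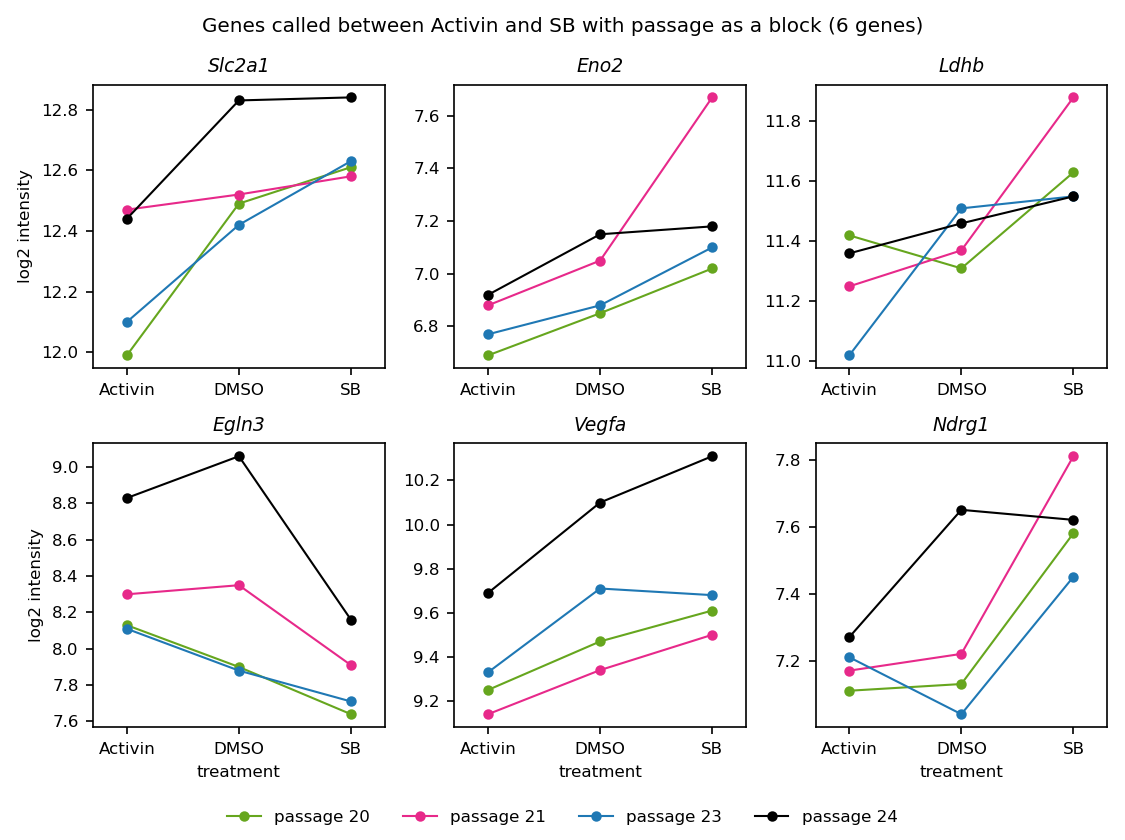
Log2 intensity (y axes, each with its own range) on the Activin, DMSO and SB arrays (x axes) of the 6 genes called between Activin and SB with passage as a block, with 1 line per passage. In every panel the 4 lines keep the same direction between their Activin and SB ends, and Egln3 alone runs downward.

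The values behind those calls were read within passages. Slc2a1 averaged 12.25 ± 0.242 (SD, n = 4) in Activin, 12.56 ± 0.184 in DMSO and 12.67 ± 0.116 in SB, and its difference between Activin and SB was -0.42 (SE 0.09 with the block, adjusted p = 0.0117). Vegfa averaged 9.36 ± 0.237 in Activin, 9.65 ± 0.334 in DMSO and 9.78 ± 0.364 in SB, a difference of -0.42 (block SE 0.09, adjusted p = 0.0103). For both genes the Activin array was below the SB array in all 4 passages, and for Slc2a1 the groups did not overlap, whereas for Vegfa they did.

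Egln3 went the other way, at 8.34 ± 0.335 in Activin, 8.30 ± 0.553 in DMSO and 7.86 ± 0.232 in SB, with a difference of 0.49 (block SE 0.11, adjusted p = 0.016). Against DMSO, SB was lower by -0.44 with a block adjusted p of 0.0668, which missed the threshold. Egln3 and Vegfa, both HIF targets, thus had opposite signs between Activin and SB and the same sign at passage 24.

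Ndrg1, a stress-responsive gene and HIF target, read 7.29, 7.13, 7.11 and 7.58 at passage 20, 7.36, 7.22, 7.17 and 7.81 at passage 21, 7.22, 7.04, 7.21 and 7.45 at passage 23 and 7.35, 7.65, 7.27 and 7.62 at passage 24. The SB arrays were the highest of passages 20, 21 and 23, and at passage 24 the DMSO array read 7.65 against 7.62 for SB. Activin was lower than SB by -0.43 (block SE 0.09, adjusted p = 0.0124), and SB was above DMSO by 0.36, which was not called (adjusted p = 0.307, or 0.0858 with the block). The dimmer probe of Ndrg1 gave -0.23 and was not called. Ldhb averaged 11.26 ± 0.178 in Activin, 11.41 ± 0.0872 in DMSO and 11.65 ± 0.157 in SB, a difference of -0.39 (block SE 0.09, adjusted p = 0.0313). Eno2, the neuronal enolase, was above background on none of the Activin arrays and on 2 of the SB arrays, so no fold is given (block adjusted p = 0.0275). Its SB arrays read 7.02, 7.67, 7.10 and 7.18 at passages 20, 21, 23 and 24, and the lowest signals above background on the Activin arrays averaged 7.13. The SB array of passage 21 stood above the other 3, which lay near that limit.

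The count of 6 moved with single arrays. It was 3 without the Activin array of passage 20, the Activin array of passage 21 or the SB array of passage 20, 2 without the Activin array of passage 23, the Activin array of passage 24 or the SB array of passage 21, and 0 to 3 when a whole passage was left out. Among the neighbouring lists Bhlhe40 (0.61), Angptl4 (0.34) and Ak4 (-0.34), HIF targets all, were called between Activin and SB with the block (adjusted p = 0.0124, 0.031 and 0.0282) and not without it, and in the other lists of metabolic and regulatory genes limma called 0. Marker levels of the groups stood beside these differences. The mean log2 level of the 8 ES cell markers ran from 11.21 to 11.43 in Activin and from 10.96 to 11.18 in SB without overlap. Only 5 of the 8 were higher in Activin than in SB, and Tdgf1 alone was called. The mean level of the primitive endoderm markers ran from 7.08 to 7.83 in Activin and from 7.21 to 8.02 in SB, and Pdgfra was called with the block. The part of these markers in the differences was not tested.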

How the data were processed

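Illumina BeadChip intensities were read for 16 cultures, 4 in each of 4 treatment groups, with groups and passages taken from the sample labels. The deposited non-normalised table holds probe intensity after background subtraction in BeadStudio by the authors. The authors' normalised intensity (cross-correlation, values floored at 40) served as an alternative. Intensities were background-corrected by normexp with an offset of 50, quantile-normalised and log2-transformed, then fitted with limma 3.58.1 in R 4.3.3. Treatments were compared in a model of 4 groups, with passage as a block as an alternative, and passages in a model with treatment as a term. P-values were adjusted by Benjamini-Hochberg over 24606 probes at a threshold of 0.05. Of these probes, 20980 carry 1 gene symbol, 1 several and 3625 none.

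The labels give each culture's passage, shared across groups, and deviations from the group means correlated at 0.0976 to 0.325 between arrays of the same passage and -0.238 to 0.0995 between others, so passages were taken to pair the cultures. The treatment fits with passage as a block use this pairing, and the 4-group fits leave it out. All listed genes are accounted for. Values on every array are given for those past the threshold in a treatment comparison or the F test and for Slc2a1, Hk2, Pfkp, Gapdh, Ldha, Pdk1, Hif1a, Vegfa, Egln3 and Bnip3, and further probes where they differ in sign or call. Of neighbouring lists at most the 4 genes with the smallest adjusted p in each direction are named. The genes and lists were chosen with earlier results of these data known. The passages are biological replicates per the study's legends, all of 1 cell line, and the number of arrays limits the precision. The fits were tested on simulated data. Chip layout and genome build are not given in the sources used here. Promoter windows came from RefSeq.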

Additional observations from a re-analysis of the deposited data

Results flagged for a closer look

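Within the groups of 4 arrays, by treatment or by passage, 12 of 208 groups (5.77%) held 1 array far from its other 3, where chance gives about 1 in 20. By treatment, Aldoc read 8.26 on the Activin array of passage 21 against 7.93 to 7.97, and 8.20 on the KSR array of passage 24 against 7.83 to 7.86. Gapdh read 15.69 on the KSR array of passage 20 against 15.82 on the others, both among the KSR arrays and among those of passage 20. Pfkfb4 read 7.87 on the DMSO array of passage 23 against 7.49 to 7.53, and Car9 read 6.99 on the SB array of passage 24 against 7.15 to 7.17.

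By passage, the KSR array of passage 20 was low for Aldoc, at 7.83 against 7.94 to 7.95, and for Ldha, at 12.95 against 13.01 to 13.03. Pfkfb3 read 7.71 on the SB array of passage 20 against 7.65 to 7.66. P4ha1 read 7.78 on the DMSO array of passage 24 against 7.40 to 7.45. Ankrd37 read 7.77 on the KSR array of passage 21 against 8.26 to 8.35, and Car9 read 7.27 on the Activin array of passage 23 against 7.14 to 7.15.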

How the results depend on the processing

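Activin against DMSO and DMSO against KSR called 0 of the 34 genes under all 25 alternatives of each. SB against DMSO called 0 to 1 with 1 array or passage left out. Activin against SB without the block called 0, with 2 over probes above background alone, 1 with a trended robust fit, 1 with the 2 groups alone, 6 with passage as a block (replicate block), and 0 to 1 with arrays left out. With the block, 6 became 1 at an offset of 16, 1 at a floor of 16, 3 with median scaling, 1 with no scaling, 0 at a threshold of 0.01, 0 with no replicate block, and 0 to 4 with arrays left out. The block changed no other call among the 34 genes. Of these 6, Egln3 kept its call in 15 of 24 alternatives, Ndrg1 in 13, Vegfa in 12, Slc2a1 in 11, Ldhb in 7 and Eno2 in 8 of 23.

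The F test's 12 became 6 at an offset of 16, 7 at 0.01, 3 without passage 24 (leaving out whole passages was chosen after seeing the data), and 6 to 12 with arrays left out. Passage 24 against the rest called 11, with 6 at an offset of 16, 6 at a floor of 16, 19 with median scaling, 18 with none, 6 at 0.01 and 5 to 11 with arrays left out. Slc2a3 turned to 0.149 with median scaling and 0.166 with none, and Hk2 to 0.121 and 0.138. Tpi1, Ldha, Egln3, Vegfa and P4ha1 kept their calls in all 31 alternatives, Ankrd37 in 27, Bnip3l in 22, Egln1 in 20, Aldoa in 17, Slc2a1 in 12 and Pfkfb3 in 10. Passages 23 and 24 against 20 and 21 called 6, with 17 with median scaling, 20 with none, 2 at 0.01 and 2 to 7 with arrays left out. Passage 24 against 23 called 8, with 3 at an offset of 16, 4 at a floor of 16, 5 with no scaling, 2 at 0.01 and 2 to 8 with arrays left out. Passage 21 against 20 called 1, with 0 with median or no scaling, 2 in the authors' normalised values, 3 over probes above background, 3 with a trended robust fit and 0 to 1 with arrays left out. The causes were not tested. A chip block was not run. Over all probes the share of higher calls was 52% for passages 23 and 24 (87.9% with median scaling, 96.3% with none), 55.6% for passage 24 against 23 (84.2%, 75.5%), 43.3% for passage 21 against 20 (22.9%, 7.21%) and 64.7% for Activin against SB (69.6%, 80.9%). Probes near background limit Pgk1, Hif1a, Bnip3, Adm, Ero1l and Higd1a.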
